A study of Mus musculus with 16 samples.

Results

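Retinoic acid (RA) was compared for its effect on mouse induced hair cell-like cells (iHCs) at culture day 12, over 22180 genes. The 6 arrays compared are those whose titles give Dox+RA at day 12 (3 arrays) and Dox alone at day 12 (3 arrays), out of 16 arrays in the series. All cells came from 1 reporter line of mouse embryonic stem cells, iGPA-Myo7a:mVenus, grown as floating embryoid bodies (EBs) in medium with fetal bovine serum. In this line doxycycline (Dox) turns on 3 transcription factor genes that make hair cells, Gfi1, Pou4f3 and Atoh1, and the fluorescent protein mVenus reports activity of the Myo7a promoter.

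The Dox+RA day 12 group had received Dox and RA from day 4, for 8 days, and the Dox day 12 group had received Dox alone over the same 8 days. Both were sorted by flow cytometry for mVenus. The series also has Dox+RA and Dox groups sorted at day 8 after 4 days of treatment (3 arrays each), used below to ask how far the RA effect depended on the day, and untreated, unsorted control EBs of each day (2 arrays each). The concentrations of Dox and RA were not known here. Both compared groups carry the induced factors and passed the same gate, so the comparison concerns RA on top of Dox in cells that had turned the reporter on, and cells that did not turn it on were not measured. The submitters call the replicates biological and the RNA preparations independent. Nothing says whether each came from a culture of its own, so p-values measure the spread between these samples.

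RA is a small molecule made from vitamin A. Cells make it from retinol through retinaldehyde, bind it in the cytoplasm, break it down with enzymes of the Cyp26 family, and sense it through nuclear receptors (Rar, paired with Rxr) that sit on DNA at repeats of a short motif. Genes at the 3′ end of the Hox clusters and several genes of RA turnover itself are known direct targets, and in the ear RA is known for its part in patterning the otocyst and in the development of hair cells.

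The label of hair cell-like cells was set against markers. All 10 hair cell markers examined had a higher level in every Dox+RA and every Dox array of day 12 than in both control EB arrays of that day. For Gfi1, Pou4f3 and Atoh1, which Dox induces, and Myo7a, whose promoter drives the sorted reporter, the design itself favours this outcome. The other markers were Lhx3, Barhl1, Cdh23, Pcdh15, Myo6 and Otof. Since the control EBs were untreated and unsorted, the design favours these markers too, if less directly. RA was not accompanied by a called difference in the factors or the reporter gene. Gfi1 stood at 11.26, 11.30 and 11.14 in the Dox+RA replicates 1, 2 and 3, against 11.25, 11.12 and 10.87 in the Dox replicates (log2 units, as throughout). Pou4f3 averaged 11.43 ± 0.06 with Dox+RA and 11.38 ± 0.17 with Dox (SD, n = 3 each). Atoh1 averaged 11.21 ± 0.01 with Dox+RA and 11.23 ± 0.21 with Dox, and Myo7a averaged 8.35 ± 0.23 with Dox+RA and 8.34 ± 0.22 with Dox. In all 4 genes the groups overlapped. The probes of the factors may read induced and endogenous transcripts alike, so their levels do not separate these.

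Fitted over all 16 arrays in limma, 205 genes differed between Dox+RA and Dox at day 12 at a Benjamini-Hochberg adjusted p under 0.05, which is 0.924% of those tested. A gene that passed this threshold is said below to have risen or fallen with RA. Of these, 85 rose (0.383%) and 120 fell (0.541%), and the counts of called members in the lists below are to be read beside these shares. The rises ran from 2.67 to 0.38 on the log2 scale and the falls from -2.11 to -0.40, and 29 rises and 41 falls were 2-fold or more. In all 205 the 3 Dox+RA arrays lay wholly above or wholly below the 3 Dox arrays, which was so for 15.9% of all genes (9.78% wholly above and 6.07% wholly below). The calls were made on these same arrays, so a lack of overlap in called genes, here and below, is no separate support for them. With the replicate number as a block, in a fit on the 12 iHC arrays, 628 genes were called (2.83%), 277 higher (1.25%) and 351 lower (1.58%), and these included all 205. The same 12 arrays without the block gave 146. Calls given below as made with the block come from that fit.

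Replicate 3 of both groups stood apart from replicates 1 and 2. The first principal component of the 6 arrays held 47.5% of the variance and put the Dox+RA replicates 1, 2 and 3 at 22.7, 20.6 and -3.8, and the Dox replicates at 6.4, -8.7 and -37.3. Correlations between arrays ran from 0.988 to 0.995 within Dox+RA, from 0.982 to 0.994 within Dox and from 0.977 to 0.991 between them. Without Dox+RA replicate 1, 2 or 3 the count of called genes was 80, 55 or 360, and without Dox replicate 1, 2 or 3 it was 393, 55 or 150. Of the 64 called genes named in the text, 19 passed the threshold whichever single array was left out. The others lost their call without at least 1 array, at adjusted p between 0.0501 and 0.239: 36 without Dox+RA replicate 1, 43 without replicate 2 and 4 without replicate 3, and 10 without Dox replicate 1, 42 without replicate 2 and 24 without replicate 3. None of the 64 changed direction in these fits. A fit on the 6 compared arrays alone lost the call of 49 of the 64. Among these were Foxc1, Frzb, Pcdh7, Popdc3, Serpinb8, Spock3 and Zim1, whose calls were kept without each single array. With replicate 3 left out of all 4 iHC groups at once, a choice made after the data were seen, 401 genes were called, 150 of them among the 205, and 52 of the 64 named genes kept their call.

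**Figure D1:**
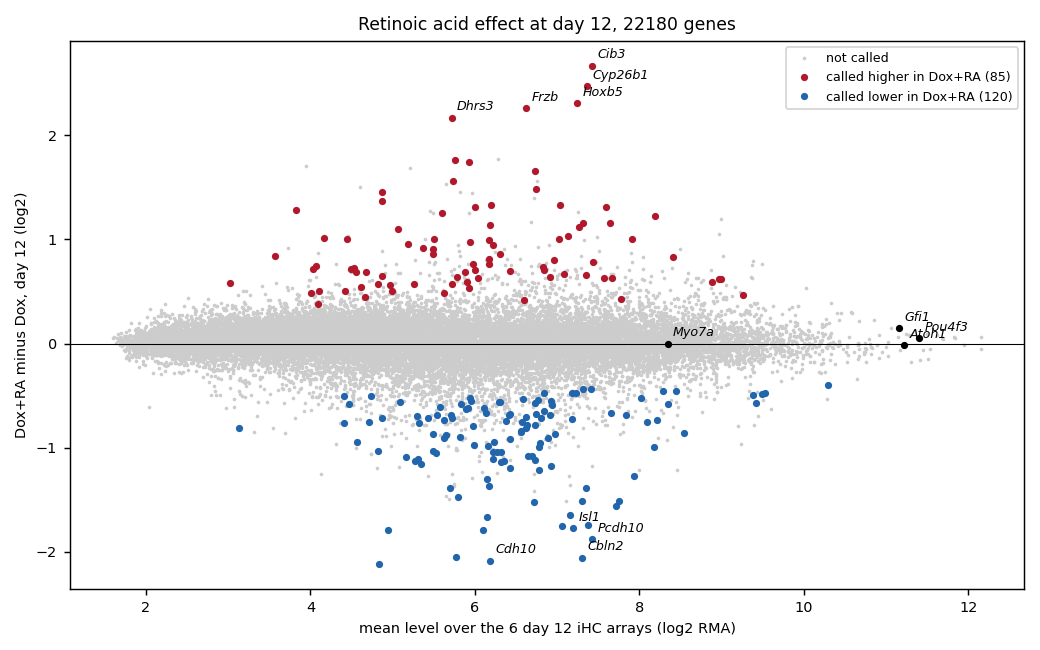
Log2 difference between Dox+RA and Dox at day 12 (vertical axis) against the mean log2 level over the 6 arrays (horizontal axis), 1 point a gene. The 85 called rises reach 2.67 and the 120 called falls reach -2.11, while Gfi1, Pou4f3, Atoh1 and Myo7a lie between 0.00 and 0.15 or at -0.02.

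RA turnover genes were among the strongest rises. Cyp26b1, an enzyme that oxidises RA to inactive products, stood at 8.32, 9.09 and 8.41 in the Dox+RA replicates, against 6.02, 5.98 and 6.40 in the Dox replicates. Every Dox+RA array was nearly 2 units or more above every Dox array, and Dox arrays were close to the control EBs (6.05 and 5.72). The difference was 2.47 ± 0.21 (limma standard error), a 5.54-fold rise (limma adjusted p = 3.48e-05). Dhrs3, which turns retinaldehyde back into retinol, stood at 6.98, 6.97 and 6.46 with Dox+RA and at 4.68, 4.59 and 4.63 with Dox. It rose by 2.17 ± 0.24 (adjusted p = 0.000489). The unsorted control EBs held more Dhrs3 signal than either group, at 8.10 and 7.45. Lrat, which stores retinol as esters, rose by 0.50 ± 0.10 (adjusted p = 0.0292), though its adjusted p reached 0.152 when single arrays were left out.

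Of 12 genes of RA synthesis and transport on the table, 2 rose (Dhrs3 and Lrat) and 0 fell. Of 6 genes of RA breakdown and binding, 1 rose (Cyp26b1) and 0 fell, and of 7 receptor genes none was called in either direction. The medians of these lists were 0.13, 0.36 and 0.17, beside 0.03 over all genes. Every Dox+RA array lay above the Dox arrays in 9.78% of all genes. In these lists a further 5 members did so without passing the threshold. Cyp26a1, Rarb and Stra6 passed it with the replicate block, and the receptor genes Rarg (0.38 ± 0.14, adjusted p = 0.274, and 0.12 with the block) and Rxrg (0.17 ± 0.11, adjusted p = 0.619, and 0.492 with the block) did not. Cyp26a1, a close relative of Cyp26b1, stood at 5.46, 5.30 and 5.21 with Dox+RA and at 4.53, 4.32 and 4.43 with Dox. It differed by 0.89 ± 0.27 (adjusted p = 0.165, and 0.0296 with the block). The receptor gene Rarb, itself a known RA target, stood at 5.93, 6.05 and 5.72 with Dox+RA and at 4.56, 5.05 and 5.08 with Dox. Its difference was 1.0 ± 0.27 (adjusted p = 0.101, and 0.0437 with the block). Stra6, the membrane receptor that takes up retinol, differed by 0.73 ± 0.21 (adjusted p = 0.132, and 0.0212 with the block). The cytoplasmic RA-binding proteins had values of opposite sign, 0.63 ± 0.38 for Crabp1 and -0.83 ± 0.33 for Crabp2, and in both the groups overlapped.

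The promoters of Cyp26a1 and Rarb each hold a direct repeat of the short receptor motif with 5 bases between the copies (DR5), the classical RA response element. These 2 genes were chosen by name, from the members of the RA lists whose call depended on the block. Stra6, another such member, was not chosen. Sprr1a is shown with them as the only called gene with a DR5 match in its promoter window. The search allowed C or G before the last base of each copy. Both copies in Sprr1a have G there (GGGTGA and AGGTGA), whereas those of Cyp26a1 and Rarb have C, so its match is a looser one. Windows run 5′ to 3′ on the strand of the gene, with 30 bases on either side of the match, which is in capitals, and come from RefSeq on GRCm38.p6. The Cyp26a1 window lies at chr19:37697746-37697822 on the plus strand, and its repeat reads on the opposite strand and begins at position -32 from the start of the gene. The Rarb window lies at chr14:16575483-16575559 on the minus strand, with the repeat at -53, and the Sprr1a window at chr3:92485954-92486030 on the minus strand, with the repeat at -119.
Cyp26a1: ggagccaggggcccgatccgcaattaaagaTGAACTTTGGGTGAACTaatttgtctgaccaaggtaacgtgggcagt
Rarb: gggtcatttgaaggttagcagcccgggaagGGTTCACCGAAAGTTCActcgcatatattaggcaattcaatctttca
Sprr1a: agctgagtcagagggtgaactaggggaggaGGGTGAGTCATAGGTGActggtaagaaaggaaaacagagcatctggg

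The search covered 250 bases before to 50 bases after the start, both strands, for the DR5 and for the DR2, in which 2 bases separate the copies. Each copy had 6 bases: A or G, then G, then G or T, then T, then C or G, then A. Promoters of 16990 of the 22180 genes were in the table. DR5 was found in 51 of them (0.30%) and DR2 in 53 (0.31%). Among called genes, 1 of 56 rises with a promoter in the table held a DR5 (Sprr1a) and 0 of 56 a DR2, and of 90 falls 0 held either. Sprr1a, which encodes a protein of the cornified envelope of skin, stood at 6.09, 6.09 and 5.84 with Dox+RA and at 4.93, 5.22 and 4.86 with Dox, a rise of 1.0 ± 0.21 (adjusted p = 0.0365). It was named for its match, after its values were seen, and its adjusted p reached 0.154 when single arrays were left out. A match describes these letters and is neither a binding site nor a cause, and windows without one may have elements elsewhere.

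Among the Hox genes, which set position along the body axis, the rises were mostly in the Hoxb cluster. Hoxb5 stood at 8.75, 8.40 and 8.05 in the Dox+RA replicates and at 6.31, 6.08 and 5.88 in the Dox replicates, so that the lowest Dox+RA array was more than 1 unit above the highest Dox array. The rise was 2.31 ± 0.18 or 4.95-fold (limma adjusted p = 2.45e-05). A second entry for Hoxb5 on the array, of lower signal, gave 0.62. Hoxb4 stood at 7.03, 6.32 and 6.56 with Dox+RA and at 4.79, 5.03 and 4.82 with Dox, a rise of 1.76 ± 0.21. Hoxb3 stood at 6.42, 6.46 and 6.68 with Dox+RA and at 5.06, 4.85 and 4.96 with Dox, a rise of 1.56 ± 0.14 (adjusted p = 5.28e-05). Hoxb2 stood at 4.55, 4.15 and 4.70 with Dox+RA and at 3.01, 3.15 and 3.38 with Dox, a rise of 1.29 ± 0.17. In these 4 genes no Dox+RA array overlapped a Dox array, and Hoxb2, Hoxb3, Hoxb4 and Hoxb5 were also higher in every Dox+RA array than in both control EB arrays.

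Of the 13 Hox genes of paralogues 1 to 5 on the table, 5 rose and 0 fell, and all 13 had a positive difference (median 0.54). The fifth was Hoxa5 (1.01 ± 0.20, adjusted p = 0.0283), whose call was lost without Dox+RA replicate 2 or Dox replicate 2 or 3, with an adjusted p of up to 0.094. Of 23 genes of paralogues 6 to 13, 1 rose, Hoxb8 (0.75 ± 0.16, adjusted p = 0.0453), and 0 fell (median 0.11), and Hoxb8 lost its call without any one of 5 arrays (adjusted p up to 0.195). By cluster, 5 of 10 Hoxb genes rose (median 0.75), 1 of 9 Hoxa genes (0.26), 0 of 9 Hoxc genes (0.11) and 0 of 8 Hoxd genes (0.07). Hoxb1, the most 3′ gene of its cluster, stood at 5.94, 6.12 and 6.50 with Dox+RA and at 5.54, 5.55 and 5.55 with Dox. Its difference of 0.64 ± 0.34 did not pass (adjusted p = 0.479). In Hoxb9 (0.76 ± 0.23, adjusted p = 0.172) Dox+RA replicate 3 at 6.08 stood above replicates 1 and 2 at 4.76 and 5.01. The fit shares the spread of all 6 groups for each gene, so a gene that varied in other groups needs a larger difference.

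**Figure D2:**
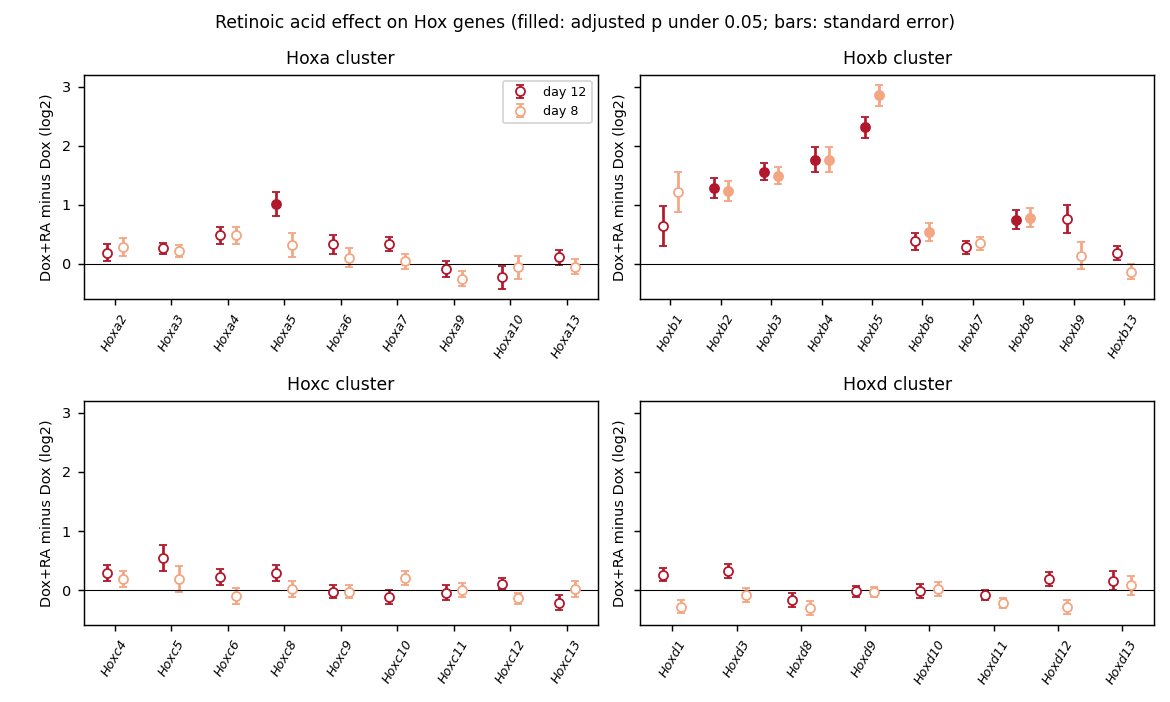
Log2 difference between Dox+RA and Dox for the Hox genes on the table, by cluster, at day 12 (dark, left of each pair) and day 8 (light, right), with limma standard errors and filled points for adjusted p under 0.05. Hoxb5, Hoxb4, Hoxb3 and Hoxb2 are filled at both days, with day 12 differences of 2.31, 1.76, 1.56 and 1.29.

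Of 16 genes of the Meis, Pbx and Cdx families and other direct RA targets, 1 rose and 2 fell. Of these, Meis2, a homeodomain partner of Hox proteins, rose by 0.66 ± 0.13 (adjusted p = 0.0255). Pbx3, another such partner, fell by 0.75 on the log2 scale (standard error 0.14, adjusted p = 0.0207). The other fall was Foxc1, a forkhead factor of mesoderm and neural crest, which stood at 6.78, 6.94 and 7.27 with Dox+RA and at 7.98, 8.62 and 8.92 with Dox, a change of -1.51 ± 0.23 (adjusted p = 0.00636). The calls of Meis2 and Pbx3 were lost when single arrays were left out (adjusted p up to 0.147 and 0.0962), and that of Foxc1 was kept.

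The largest rise of all was Cib3, a calcium- and integrin-binding protein of the mechanotransduction complex in mouse vestibular hair cells. It stood at 8.65, 9.37 and 8.26 with Dox+RA and at 6.13, 6.22 and 5.93 with Dox, and control EBs had 4.13 and 3.86. The rise was 2.67 ± 0.24 or 6.36-fold (adjusted p = 5.28e-05). The 2 treated groups were both above the control EBs, and every Dox+RA array was 2 units or more above every Dox array. Skor2, a transcriptional corepressor known from cerebellar Purkinje cells, stood at 6.59, 6.88 and 6.92 with Dox+RA and at 5.43, 4.87 and 4.87 with Dox, a rise of 1.74 ± 0.18 (adjusted p = 0.00031). Rec8, a cohesin subunit of meiosis, stood at 7.75, 7.50 and 7.21 with Dox+RA and at 6.36, 5.75 and 5.89 with Dox, a rise of 1.48 ± 0.16 (adjusted p = 0.000443). Cib3, Skor2 and Rec8 had the same order of groups, with Dox+RA highest and control EBs lowest.

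Frzb, a secreted Wnt antagonist, was less even. It stood at 8.14, 8.24 and 6.89 with Dox+RA and at 5.71, 5.16 and 5.62 with Dox, a rise of 2.26 ± 0.30 (adjusted p = 0.00217), with Dox+RA replicate 3 more than 1 unit below replicates 1 and 2. Control EBs, at 6.36 and 6.95, were above all Dox arrays. Its call was kept without each single array but was lost in a fit on the compared arrays alone (adjusted p = 0.0721). That fit lost the calls of 49 of the 64 called genes named in the text. The remaining members of the 15 largest rises were Defa24, an alpha-defensin (1.66 ± 0.26), Popdc3, a Popeye-domain membrane protein (1.46 ± 0.18), the gut peptide gene Pyy (1.37 ± 0.24), Plekhb1 (1.33 ± 0.25), the potassium channel gene Kcnk16 (1.33 ± 0.28) and Chrne, a subunit of the muscle acetylcholine receptor (1.31 ± 0.23). Their adjusted p ran from 0.00107 for Popdc3 to 0.0375 for Kcnk16. Popdc3 kept its call without each array, and the others lost theirs without at least 1, with adjusted p of up to 0.171. Defa24 belongs to a family of near-identical genes whose probes may not tell members apart.

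**Figure D3:**
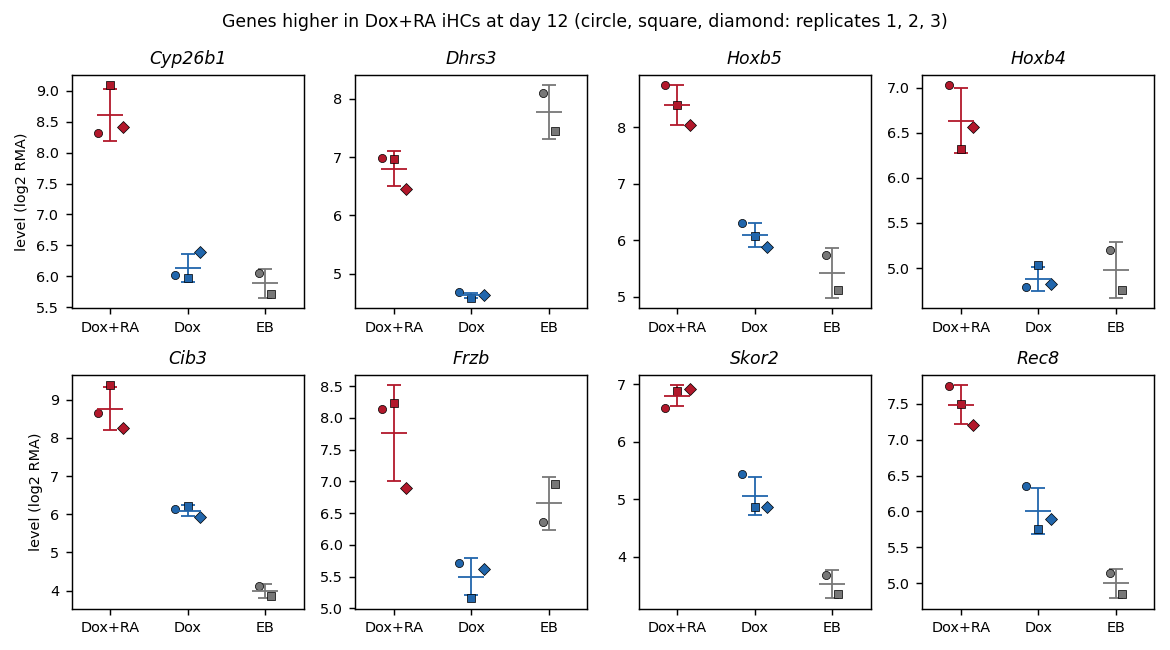
Log2 level of 8 genes that rose with RA at day 12, in the Dox+RA, Dox and control EB (EB) arrays, with the group mean and SD as bars and markers for replicate number. No Dox+RA array overlaps a Dox array in any of the 8, while Dhrs3 is highest in control EBs, at 8.10 and 7.45.

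Hair cell genes as groups moved little at day 12. Of 31 stereocilia and mechanotransduction genes, a list that does not hold Cib3, 1 rose and 0 fell (median 0.10). That gene was Myo1h, an unconventional myosin, at 0.59 ± 0.12 (adjusted p = 0.0376, up to 0.192 without single arrays). With the block Espn, an actin bundler of stereocilia (0.47), was called as well. Of 18 hair cell transcription and RNA regulators 0 rose and 1 fell, and that gene, Isl1, is a LIM-homeodomain factor also known from motor neurons and heart progenitors. Isl1 stood at 5.61, 6.37 and 6.95 with Dox+RA and at 7.55, 8.24 and 8.47 with Dox. It fell by 1.77 on the log2 scale (standard error 0.30, adjusted p = 0.0116), and its adjusted p reached 0.0728 when single arrays were left out. No Dox+RA array overlapped a Dox array, and control EBs (7.93 and 7.47) lay near the Dox arrays.

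Of 22 genes of hair cell synapses and excitability 0 rose and 2 fell (median 0.05). Slc17a8, the transporter that loads glutamate into vesicles of inner hair cells, stood at 6.22, 6.33 and 6.66 with Dox+RA and at 6.80, 7.28 and 7.15 with Dox. Slc18a2, the vesicular transporter for monoamines, stood at 8.97, 9.14 and 9.29 with Dox+RA and at 9.69, 9.65 and 9.77 with Dox. The changes were -0.67 ± 0.14 (adjusted p = 0.0375) and -0.57 ± 0.10 (adjusted p = 0.0148), and the highest adjusted p without single arrays was 0.197 and 0.0812. Both genes remained well above control EBs, where no array passed 5.62. With the block Ctbp2, whose locus encodes the ribbon protein RIBEYE (-0.50), was called as well. Of 28 potassium channel genes, a list that does not hold the called rise Kcnk16, 1 rose and 0 fell. The rise was Kcnj6 (0.65 ± 0.11, adjusted p = 0.0116, up to 0.0696 without single arrays), and the block also called Kcnb2 (-0.79). Of 21 otic placode and supporting cell genes 0 rose and 1 fell, the neural crest and otic factor gene Sox10 (-0.79 ± 0.14, adjusted p = 0.0134, up to 0.0728), while the block also called Fbxo2 (0.59). None of 20 Notch pathway genes was called, with a median of -0.03. With the block 2 were, the ligand gene Dll1 (0.61) and the receptor gene Notch3 (-0.53). In bulk RNA, fewer cells of a type and less RNA per cell cannot be told apart.

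Some genes of cell adhesion and synapse formation were among the largest falls, described here one by one. Their families did not move as a whole. The median was 0.08 over 57 cadherin and protocadherin genes and 0.02 over 30 neuronal cytoskeleton, synapse and transmitter genes, beside 0.03 over all genes. Cbln2, a secreted organiser of synapses, stood at 6.17, 6.33 and 6.32 with Dox+RA and at 8.27, 8.61 and 8.12 with Dox, and control EBs had 5.38 and 5.47. It fell by 2.06 on the log2 scale (standard error 0.13, 4.16-fold lower, adjusted p = 3.93e-06), the lowest adjusted p of all genes tested. Pcdh10, a protocadherin of axons and synapses, stood at 6.29, 6.50 and 6.67 with Dox+RA and at 8.46, 8.48 and 8.16 with Dox, a change of -1.88 ± 0.16 (adjusted p = 2.88e-05). In both genes the Dox+RA arrays lay between the Dox arrays and the control EBs. Cdh10, a classical cadherin of the nervous system, stood at 4.76, 5.34 and 5.33 with Dox+RA and at 7.46, 7.75 and 6.47 with Dox, a change of -2.08 ± 0.42 (adjusted p = 0.0296). Its Dox+RA arrays were below the control EBs (5.46 and 5.35), and its call was lost without replicate 1 or 2 of either group, with an adjusted p of up to 0.17. Spock3, a proteoglycan of the testican family, changed by -2.04 ± 0.25 (adjusted p = 0.000974).

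Of 40 axon guidance genes 0 rose and 5 fell (median -0.14). They were the semaphorin receptor gene Nrp2 (-1.12 ± 0.20), the ephrin receptor genes Epha7 (-1.12 ± 0.19) and Epha5 (-0.76 ± 0.14), the secreted guidance genes Sema3c (-0.98 ± 0.22) and Slit2 (-0.86 ± 0.15). Their adjusted p ran from 0.0116 to 0.049, and each lost its call without at least 1 array (Dox replicate 2 in all 5), with adjusted p of up to 0.239. With the block 6 were called lower and 1 higher, the receptor genes Robo2 (-0.54) and Unc5a (0.76) being added. In the broader neuronal list of cytoskeleton, synapse and transmitter genes, Cbln2 was the 1 fall among 30 members, 0 rose and the median was 0.02. With the block 2 were called in each direction, with the intermediate filament genes Prph (-0.71) and Ina (0.79) and the cerebellin gene Cbln1 (0.84) added.

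Some genes of the extracellular matrix and its receptors were among the called falls, described here one by one, with no list of matrix genes counted. Vcan, a large matrix proteoglycan, stood at 4.74, 5.16 and 6.06 with Dox+RA, at 6.24, 7.26 and 7.44 with Dox and at 9.79 and 9.85 in control EBs, a change of -1.66 ± 0.35 (adjusted p = 0.0369). Bgn, a small matrix proteoglycan, changed by -1.56 ± 0.29 (adjusted p = 0.016), and its other entry on the array by -0.08. The growth factor-binding protein gene Igfbp5 changed by -1.65 ± 0.31 (adjusted p = 0.0188) and the integrin subunit gene Itga4 by -1.79 ± 0.32 (adjusted p = 0.015). Of 25 mesenchyme and neural crest genes 0 rose and 2 fell, Bgn and the smooth muscle gene Tagln (-0.87 ± 0.18), and the list's median was -0.06. With the block 4 were called lower, with the fibronectin gene Fn1 (-1.26) and Sparc (-0.80) added. The summed signal of that list (the sum of the unlogged values) was 999 to 1186 in Dox+RA arrays, 1202 to 2445 in Dox arrays and 15357 to 15446 in control EBs. The part of other sorted cells in these falls was not tested. Vcan, Bgn, Igfbp5, Itga4 and Tagln each lost their call without at least 3 single arrays, Dox+RA replicate 1 and replicate 2 of both groups among them, with adjusted p of up to 0.185.

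The other members of the 15 largest falls were the protease inhibitor gene Serpinb8 (-1.79 ± 0.24), the orphan receptor gene Gpr37 (-1.75 ± 0.36), the imprinted zinc finger gene Zim1 (-1.74 ± 0.26), Plekhh2 (-1.52 ± 0.28) and Lbp, which binds bacterial lipopolysaccharide (-1.51 ± 0.21). Of these, Serpinb8, Zim1 and Lbp kept their call without each array, and Gpr37 and Plekhh2 lost it without 4 arrays each (adjusted p up to 0.165). Of 23 imprinted genes 0 rose and 2 fell, Zim1 and Dlk1 (-0.92 ± 0.20, adjusted p = 0.045, up to 0.213 without single arrays), a Notch-like membrane protein. With the block 4 imprinted genes were called lower, with Cdkn1c, a cell cycle inhibitor (-1.0), and Grb10 (-1.02) added. Of 21 mesoderm and cardiac genes 0 rose and 2 fell, Isl1 and the muscle and neural crest factor gene Mef2c (-1.47 ± 0.31, adjusted p = 0.0387). The second entry of Mef2c gave -0.04, and its call was lost when entries were averaged and without 5 of the 6 single arrays (adjusted p up to 0.185). With the block the cardiac actin gene Actc1 (-1.27) was called as well. Of 36 BMP, TGF-beta and FGF genes 2 rose, the ligand genes Bmp2 (1.14 ± 0.18, adjusted p = 0.00757) and Bmp7 (0.83 ± 0.14, adjusted p = 0.011), and 1 fell, Id1 (-1.10 ± 0.21, adjusted p = 0.0218), an inhibitor of helix-loop-helix factors that BMP signals are known to induce. Without single arrays their adjusted p reached 0.0515, 0.0706 and 0.103, and with the block 3 were called in each direction, with Fgfr2 (0.46), Id2 (-0.91) and Bambi (-0.50) added. Psat1, an enzyme of serine synthesis, was the 1 fall among 15 genes of unfolded protein and amino acid stress (-1.14 ± 0.20, adjusted p = 0.0137), and its adjusted p reached 0.0517 without replicate 2 of either group.

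**Figure D4:**
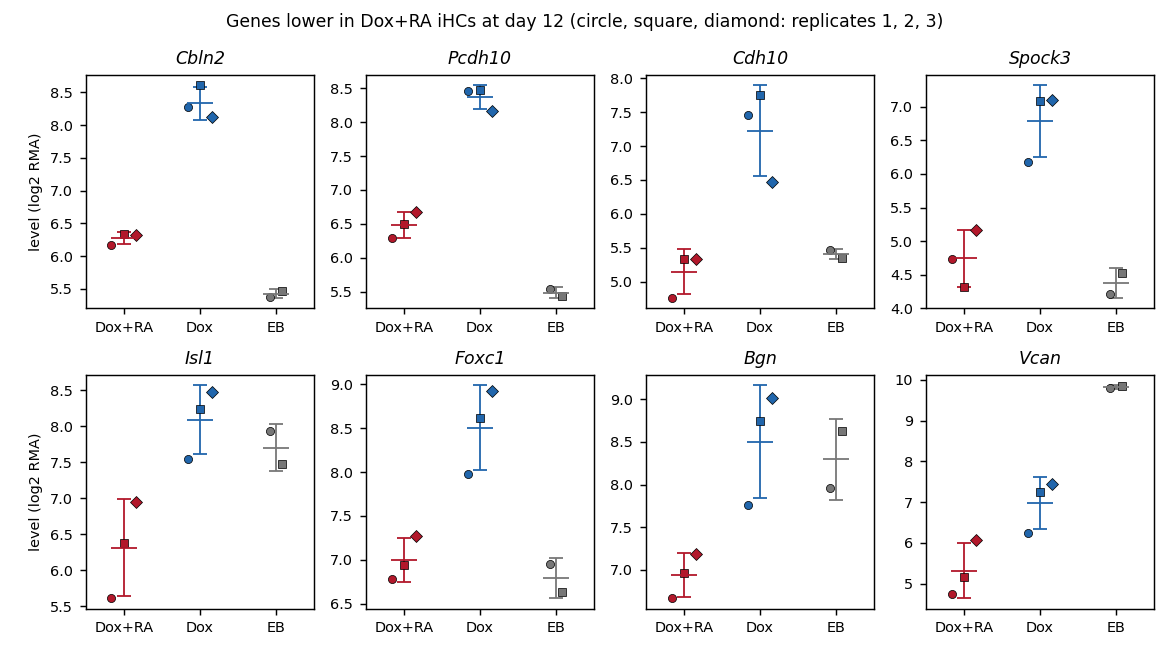
Log2 level of 8 genes that fell with RA at day 12, in the Dox+RA, Dox and control EB (EB) arrays, with the group mean and SD as bars and markers for replicate number. Cbln2 lies at 6.17 to 6.33 in Dox+RA and 8.12 to 8.61 in Dox, whereas in Vcan both groups lie below the control EBs at 9.79 and 9.85.

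Several lists held no called gene in either direction. Among 28 genes of mitosis and DNA replication the median was -0.37, beside 0.03 over all genes, and 19 had all Dox+RA arrays below all Dox arrays, against 6.07% of all genes. With the replicate block 4 were called lower, Ccne1 (-0.45), Plk1 (-0.77), Top2a (-0.78) and Mki67 (-0.88), and 1 higher, Mcm2 (0.50). Their summed signal was 1926 to 2006 in Dox+RA, 2112 to 2532 in Dox and 10383 to 10626 in control EBs. Proneural and neuronal differentiation factors (24 genes, median 0.13), pluripotency genes (20, -0.03), endoderm and yolk sac genes (20, -0.02) and blood and endothelial genes (20, 0.09) also had none. With the block the repressor genes Scrt1 (0.50) and Scrt2 (0.30) of the proneural list, Lin28b (0.48) of the pluripotency list and Sox7 (0.76) of the endoderm list were called higher, and the blood and endothelial list still had none. The summed signal was 611 to 810 in Dox+RA, 623 to 887 in Dox and 1417 to 1486 in control EBs for the pluripotency list. For endoderm it was 835 to 1150 in Dox+RA, 719 to 1558 in Dox and 3402 to 4484 in control EBs, and for blood and endothelium 548 to 1013 in Dox+RA, 578 to 845 in Dox and 2062 to 2089 in control EBs. In the mesoderm and cardiac list it was 867 to 931 in Dox+RA, 1146 to 1576 in Dox and 3160 to 3179 in control EBs. Immediate early and dissociation stress genes had a median of -0.36 over 24 genes, with none called and no member whose groups were apart.

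The RA effect at day 12 was then set against that at day 8, from arrays that the 2 days do not share. At day 8, 1094 genes were called (4.93%), 454 higher (2.05%) and 640 lower (2.89%), and with the replicate block 2230 were (10.1%), 966 higher (4.36%) and 1264 lower (5.7%). Of the 85 rises of day 12, 49 were also rises at day 8, which is 57.6% of the day 12 rises and 10.8% of those at day 8. Of the 120 falls, 80 were shared, or 66.7% of those at day 12 and 12.5% of those at day 8. The sign at day 8 was the same for 82 of the 85 rises and 114 of the 120 falls. The day 12 rises had a median of 0.78 at day 12 and 0.66 at day 8, and the falls -0.80 at day 12 and -0.69 at day 8. Genes called at day 8 had smaller medians at day 12, 0.31 at day 12 and 0.68 at day 8 for the rises, and -0.33 at day 12 and -0.68 at day 8 for the falls. Medians over genes picked at one day tend to be larger at that day, since the picking used it.

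The difference between the days was tested for every gene as an interaction (the RA effect at day 12 minus that at day 8), and 2 genes were called (0.00902%), both lower at day 12. At an unadjusted p under 0.05 there were 1276 genes (5.75%), little more than that threshold passes where no gene differs. Mx2, an interferon-induced antiviral GTPase, stood at 4.08, 4.15 and 4.32 with Dox+RA and at 4.03, 4.03 and 3.76 with Dox at day 12. At day 8 it stood at 5.88, 5.92 and 6.15 with Dox+RA and at 4.10, 3.79 and 3.67 with Dox. The RA effect was 0.24 at day 12 and 2.13 at day 8, an interaction of -1.89 ± 0.17 (limma adjusted p = 0.000536). Cbln2 was the other, with an RA effect of -2.06 at day 12 and -0.73 at day 8 and an interaction of -1.32 ± 0.19 (adjusted p = 0.0495). Its levels were 6.28 ± 0.09 with Dox+RA and 8.33 ± 0.26 with Dox at day 12, and 5.94 ± 0.21 with Dox+RA and 6.67 ± 0.12 with Dox at day 8 (SD, n = 3 each). With the replicate block the interaction of Cbln2 had an adjusted p of 0.0518, so that 1 gene remained called (0.00451%), and without single arrays it reached 0.261.

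Many lists had more called members at day 8 than at day 12, and the 3 with the largest difference are given. Of 26 interferon-stimulated genes 0 were called at day 12, with the block or without it (median 0.22), whereas 15 rose and 0 fell at day 8 (median 0.56). The interaction was called in 1 of them, Mx2, and was negative at an unadjusted p under 0.05 in 15 and positive in 0, against 2.61% and 3.14% of all genes. At day 12 Usp18, a brake on interferon signalling, differed by 0.94 ± 0.26 (adjusted p = 0.124), Oasl2 by 0.78 ± 0.25 (adjusted p = 0.185) and the RNA sensor gene Ddx58 by 0.47 ± 0.21 (adjusted p = 0.398), and at day 8 by 2.67, 2.84 and 1.97. At day 12 the arrays of the groups did not overlap in these 3, and over the list 12 of 26 were wholly above and 1 wholly below the Dox arrays, beside 9.78% and 6.07% of all genes. Of the 31 stereocilia genes 1 rose at day 12 and 13 rose at day 8 (medians 0.10 at day 12 and 0.52 at day 8). The interaction was negative in 28 of the 31, at an unadjusted p under 0.05 in 11, and called in 0. Of the 28 mitosis genes 0 fell at day 12 and 14 fell at day 8 (medians -0.37 at day 12 and -0.68 at day 8). The interaction was called in 0 of them, and at an unadjusted p under 0.05 it was positive in 2 and negative in 0. Outside Mx2, then, no member of these 3 lists passed the test of a difference between the days.

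Other genes had like effects at both days. Hoxb4 changed by 1.76 at day 12 and 1.76 at day 8, Hoxb3 by 1.56 at day 12 and 1.49 at day 8, Skor2 by 1.74 at day 12 and 1.88 at day 8, and Cib3 by 2.67 at day 12 and 2.47 at day 8. Cyp26b1 changed by 2.47 at day 12 and 1.63 at day 8 (interaction 0.84 ± 0.30, adjusted p = 0.747) and Dhrs3 by 2.17 at day 12 and 1.05 at day 8 (1.12 ± 0.34, adjusted p = 0.65). Frzb was called at day 12 alone, with 2.26 at day 12 and 0.27 at day 8, and the interaction of 1.99 ± 0.42 did not pass (adjusted p = 0.262). Lbp changed by -1.51 at day 12 and -0.17 at day 8 (interaction -1.34 ± 0.30, adjusted p = 0.29), and Gpr37 by -1.75 at day 12 and 0.07 at day 8 (-1.82 ± 0.52, adjusted p = 0.567). A p that misses the threshold does not show that the days were alike.

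**Figure D5:**
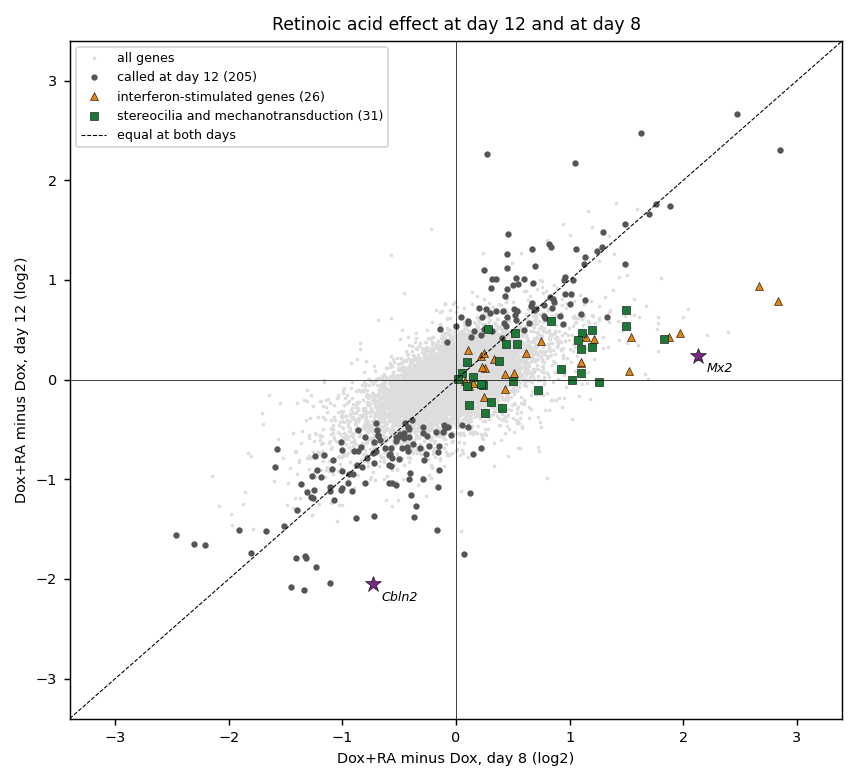
Log2 difference between Dox+RA and Dox at day 12 (vertical axis) against that at day 8 (horizontal axis) for all genes, with the 205 genes called at day 12 in dark grey. The interferon-stimulated genes (26) and stereocilia genes (31) spread to the right along day 8 with day 12 values of at most 0.94 and 0.70, and the 2 genes with a called interaction, Mx2 and Cbln2, are starred.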

How the data were processed

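RNA was hybridised to Affymetrix Mouse Gene 2.1 ST arrays, and log2 values were deposited by the authors for 33708 transcript clusters on 16 arrays. Per the submitters' processing notes they were made with Affymetrix Expression Console and RMA, which corrects background, sets arrays to one distribution and summarises probes. Versions, array strips and the genome build were not known here. The deposited log2 values (1.44 to 12.3, 0 missing) were used unchanged. RMA understates differences of dim genes, no detection call comes with the values, and the number of arrays limits the precision.

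Entries were named through the platform annotation: 23521 had 1 symbol, 1814 several and 8373 none, and only those with 1 were used. For 1082 genes with more than 1 entry the brightest was kept, which left 22180 genes. The fit used limma 3.58.1 under R 4.3.3, with 6 group means over all 16 arrays, then contrasts and eBayes at defaults, with Benjamini-Hochberg adjustment over all genes. The threshold, ± beside a difference (limma's standard error) and ± beside a level (SD) are as given in the text. With 3 arrays against 3 an exact permutation test cannot go below p = 0.1, so none was used. The fit was tested on simulated data with noise drawn separately for each array. That test does not cover the shared variation of same-numbered arrays given below. The members of the 38 gene lists, the comparisons and the naming of genes were chosen with earlier results of these data known. Named genes are Gfi1, Pou4f3, Atoh1 and Myo7a, the 15 largest rises and 15 largest falls among called genes with no overlap of arrays between the groups, up to 6 called members of a list (3 as values where none was called), RA pathway and Hox members, and called interactions. Predicted genes, clone names and microRNAs were passed over (8 called). Sprr1a, genes called only with the replicate block and those named only in the closing observations lie outside this rule and were chosen after their values were seen.

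Same-numbered day 12 arrays varied together after group means were removed (r = 0.280 to 0.453 for equal numbers, -0.399 to 0.201 for others), as did those of day 8 (0.247 to 0.320, and -0.279 to -0.017). The labels do not say what a number shares, so the fit has no replicate term, and values with the number as a block, fitted on the 12 iHC arrays, stand beside genes and lists whose calls they change. Alternatives were a fit on the compared arrays, the block, dim genes left out, a trended robust spread, array weights, averaged entries, requantiled or median-centred arrays, Holm's adjustment, a 2-fold minimum and each array left out.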

Additional observations from a re-analysis of the deposited data

Results flagged for a closer look

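The interaction between RA and day, tested in limma for all genes, singled out Mx2, whose RA effect was lower at day 12 than at day 8 by 1.89 (log2 difference of differences -1.89 ± 0.17, adjusted p = 0.000536). All 3 Dox+RA arrays lay above all 3 Dox arrays at each day. At day 12 the margin was narrow, Mx2 was not called, and 9.78% of all genes lay wholly above. Over the alternatives in which Mx2 was tested, the value ran from -2.01 to -1.80 and the adjusted p from 3.51e-05 to 0.0122. It was not tested where dim genes were left out.

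The same test gave -1.32 ± 0.19 for Cbln2 (adjusted p = 0.0495), whose fall with RA was larger at day 12. All 3 Dox+RA arrays lay below all 3 Dox arrays at each day. The call sits at the edge of the threshold: it was lost with Holm's adjustment (0.0989), in a fit on the compared arrays alone or on the 12 iHC arrays (adjusted p = 0.136 in each), with the replicate block (0.0518), with dim genes left out (0.0743), with a trended robust spread (0.0552) and without any one of 8 of the 12 iHC arrays, and the value ran from -1.45 to -1.18.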

How the results depend on the processing

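The 205 genes called at day 12 became 70 at a 2-fold minimum, 22 with Holm's adjustment, 29 in a fit on the compared arrays alone, 628 with the replicate block, 635 with array weights and 401 with replicate 3 of the iHC groups left out, and 55 to 393 with single arrays left out. Called members of any list numbered 33, and under the same settings 18, 7, 10, 71, 71, 53 and 10 to 59. Day 8 calls (1094) became 250 at a 2-fold minimum, 60 with Holm, 2230 with the replicate block, 2277 with array weights and 333 to 1559 without single arrays. The 2 interaction calls became 1 with Holm, the compared arrays alone, the replicate block, the 12 iHC arrays without a block or the trended spread, 0 with dim genes left out, 24 with array weights and 1 to 15 without single arrays. The compared arrays alone leave 4 residual degrees of freedom against 10; the cause of the other shifts was not tested.

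Of 1079 values of the 64 called named genes under alternatives, 788 kept their call, 291 lost it and 0 changed sign. The replicate block lost no call of a named gene at day 12. Cbln2, Cib3, Cyp26b1, Dhrs3, Hoxb2, Hoxb3, Hoxb4, Hoxb5, Pcdh10, Rec8 and Skor2 kept theirs in every setting run, and Lbp in every setting but Holm. Genes near 0 changed sign: Atoh1 (0.05 without Dox replicate 1, 0.04 without Dox replicate 2; -0.14 to 0.05 over single arrays), Pou4f3 (-0.05 without Dox replicate 3, -0.02 with replicate 3 of the iHC groups left out) and Myo7a (-0.01 requantiled, -0.01 centred, -0.12 to 0.13 without single arrays, below 0 at -0.09, -0.12 and -0.04). Other scalings moved the median of all genes by under 0.1 and the share of rises among calls, 41.5%, to 41.6% (requantiled) or 35.9% (centred).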

Other observations

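Called genes were also looked at by their order along the chromosomes in RefSeq, a view chosen after the values were seen. Of 22116 pairs of neighbouring tested genes, 10 had both members called at day 12, and 9 of these moved the same way. Hoxb5, Hoxb3, Hoxb4 and Hoxb2 on chromosome 11 made up 3 of the pairs. The Popeye-domain genes Popdc3 and Bves on chromosome 10 rose by 1.46 and 1.31. On chromosome 6 the receptor gene Gpr27 rose by 1.16 and the neighbouring secreted peptide gene Prok2 by 0.69. Cd2ap, an adaptor of the actin cytoskeleton, and the death receptor gene Tnfrsf21 on chromosome 17 changed by -0.73 and -0.78. The cDNA gene 2610316D01Rik, next to Pcdh10 on chromosome 3, had the largest fall of all at -2.11 ± 0.18 (limma adjusted p = 2.88e-05), with 3.57, 3.71 and 4.04 in Dox+RA arrays and 5.77, 6.04 and 5.85 in Dox arrays. The 1 pair of opposite sign was Begain, which rose by 0.92, and the imprinted gene Dlk1, at -0.92, on chromosome 12, where Wdr25, on the other side of Begain, rose by 0.42. Many of these calls were not firm. Begain and Tnfrsf21 lost theirs without any one of the 6 arrays (limma adjusted p up to 0.0928 and 0.121). Cd2ap and Dlk1 lost theirs without 4 arrays each (up to 0.141 and 0.213) and Wdr25 without 3 (up to 0.0731). Bves, Gpr27 and Prok2 lost theirs without 2 each (up to 0.0634, 0.0621 and 0.121). Neighbouring genes can share probes or transcripts, and this was not tested.

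Cadherin and protocadherin genes, grouped by symbol after Cdh10 and Pcdh10 had been seen, had 5 falls and 0 rises among 57 on the table. Over all genes 0.541% fell and 0.383% rose. The median of the 57 was 0.08, and with the block 6 were called lower and 1 higher. Beside Cdh10 and Pcdh10, the 5 falls were Pcdh7 (-0.99 ± 0.14), with 7.87, 7.86 and 7.31 in Dox+RA arrays and 8.53, 8.74 and 8.75 in Dox arrays, Cdh11 (-0.90 ± 0.20), with 6.28, 6.32 and 6.70 in Dox+RA arrays and 7.37, 7.22 and 7.42 in Dox arrays, and Cdh2, the neural cadherin (-0.54 ± 0.11). Pcdh7 kept its call without each single array, and Cdh10, Cdh11 and Cdh2 did not. The second entry of Cdh2 gave -0.13.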
